A study of Arabidopsis thaliana with 6 samples.

Results

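COR47 (AT1G20440, probe set 259570_at) and LTI30 (AT3G50970, probe set 252102_at) are dehydrin genes, followed here across 6 ATH1 arrays of cultured Arabidopsis thaliana cells of ecotype Ler. They were chosen by name, with their values on these arrays already known, and each is the only gene of its probe set in the platform annotation. They are 2 of 13286 genes that this annotation and the RefSeq gene table name through a single-gene probe set, and 2 of 6 dehydrin genes so named. Liquid cultures were sampled at days 2, 5 and 9 in a medium labelled high differentiating, and at days 5 and 9 in a medium labelled low differentiating. The high medium held 0.2 mg/l auxins (2,4-D, NAA, IAA) and 1 mg/l of the cytokinin BA, and the low medium held 0.5 mg/l 2,4-D and 1.5 µg/l kinetin. Both held 0.2% sucrose and 4% mannitol, at 22 °C on a shaker at 105 rpm. The remaining sample was callus at day 0, from leaves of 14 to 17 day old seedlings kept 2 weeks in the dark on a medium with 2.0% glucose, 0.5 mg/l 2,4-D and 0.05 mg/l kinetin. All 5 liquid cultures were started from callus made in this way. The growth field of the labels lists the high medium's hormones for every sample, so the medium was taken from each sample's name and treatment text.

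Dehydrins belong to the late embryogenesis abundant (LEA) proteins, a class of hydrophilic, largely unstructured proteins that accumulate in maturing seeds and in tissues that lose water. They carry a conserved lysine-rich stretch, the K-segment, which binds membranes and other surfaces as cells dry or freeze. COR47 and LTI30 are known as genes induced by cold, drought and the hormone abscisic acid. COR47 encodes an acidic dehydrin, close in sequence to ERD10 and ERD14. LTI30, also named XERO2, encodes a dehydrin made of repeated K-segments that binds membranes.

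Each condition had 1 array, so no value below has a replicate check and none was tested. Because the genes were picked with these values known, all comparisons of them are descriptions. Values are the deposited intensities, on a linear scale that the submitters had already set to a common level: the trimmed mean ran from 99.2 to 99.4. Intensities at or under 24.7 were taken as background (the floor), and both genes lay above it on all 6 arrays. A gene is said to be called where it differed at least 2-fold. The number of arrays limits the precision. The scan background was highest in low medium at day 5, at 105, and ran from 69.0 to 82.0 on the other 5 arrays. For the GAPDH control, the 3′ signal over the 5′ signal, a sign of RNA quality, was 1.08 to 1.21 in the liquid cultures and 0.900 in callus. Its part in the differences from callus was not tested. In these bulk samples, fewer cells of a type and less RNA per cell cannot be told apart. The liquid cultures differed from callus in liquid culture, sugar, listed mannitol, hormones and time at once, so these cannot be told apart either. Low medium had no day 2 array, so at day 2 the medium and the early time cannot be separated.

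COR47 read lower in high than in low medium on both days, and it stayed nearer to callus in low medium. At day 5 its intensity was 71.6 in high medium, against 227 in low medium. At day 9 it was 66.9 in high medium, against 228 in low medium. The high medium values lay below both low medium values. How many of all probe sets were ordered in this way was not counted. The difference was 3.17-fold at day 5 (log2 ratio of -1.67) and 3.41-fold at day 9 (-1.77), so it moved by 0.10 on the log2 scale between the days. Among all 14468 probe sets with a ratio at day 5, 0.622% were called lower in high medium, and COR47 stood 8th from the bottom. At day 9 the share called lower was 0.242% of 14077 probe sets, and COR47 had the lowest ratio of all. Since COR47 was picked with its values known, these places follow in part from that choice. Scan backgrounds at day 5 were 78.0 for high and 105 for low medium, while those at day 9 were 74.3 for high and 82.0 for low medium. The part of the scan background in the COR47 difference was not tested.

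Against callus, COR47 had already reached most of its later difference after 2 days in high medium. It read 319 in callus, and high medium gave 80.0 at day 2, 71.6 at day 5 and 66.9 at day 9. These are 25.1%, 22.4% and 21.0% of the callus intensity, with log2 ratios of -2.0, -2.16 and -2.25. The day 2 difference was 88.6% of the day 9 difference on the log2 scale. All 3 high medium values lay within 0.26 of each other on that scale, and the steps after day 2 were small: -0.16 at day 5 over day 2 and -0.10 at day 9 over day 5. Over all probe sets in high medium, the share called lower than callus was 2.63% at day 2, 3.75% at day 5 and 2.71% at day 9.

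COR47 was not called lower than callus in low medium. The day 5 and day 9 readings of 227 and 228 were 71.2% and 71.5% of the 319 read in callus, log2 ratios of -0.49 and -0.48. The step between the days was 0.01, and 0.927% of probe sets were called in either direction in that step. Over the 6 arrays its order was callus, low medium at day 9, low medium at day 5, and then high medium at days 2, 5 and 9. With no replicates, it cannot be said which neighbours in this order differ beyond their spread. The widest gap between neighbours lay between the low and the high medium arrays.

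**Figure D1:**
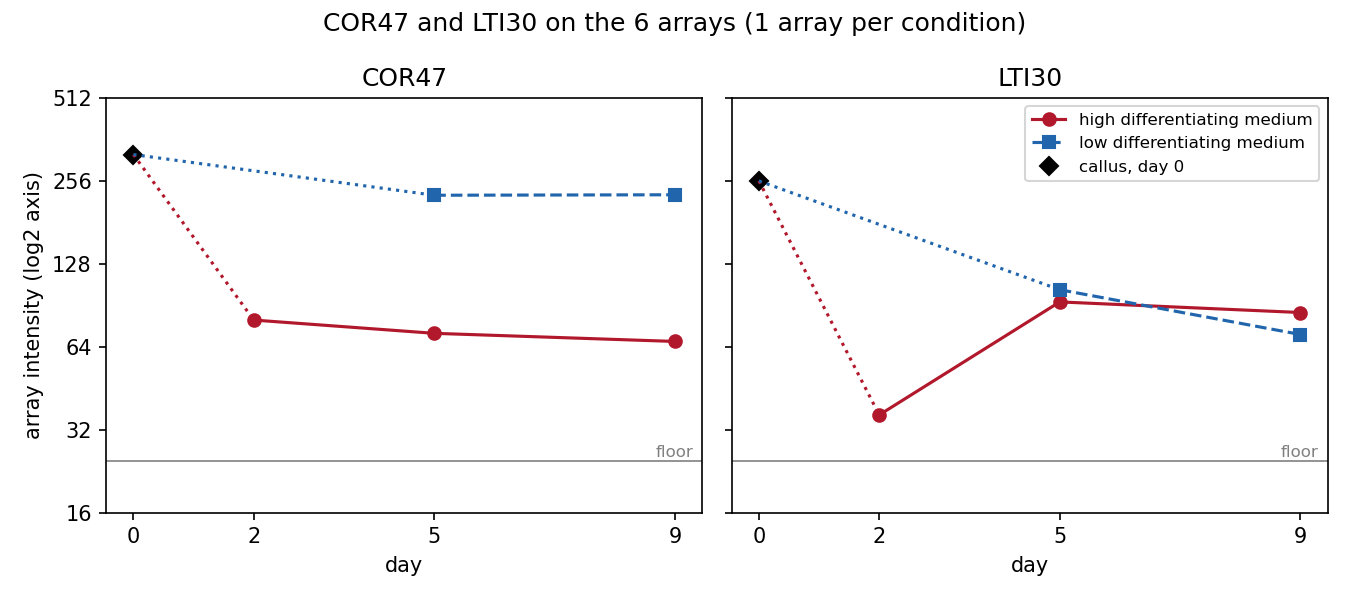
Intensity of COR47 (left) and LTI30 (right) on a log2 axis against the day of sampling, with 1 array per point. Red circles are high and blue squares low differentiating medium, the black diamond is callus at day 0, dotted lines join callus to the first sample of each medium, and the grey line is the floor at 24.7. COR47 read 66.9 to 80.0 in high medium and 227 and 228 in low medium, while LTI30 was lowest at day 2 in high medium (36.2). Levels of the 2 probe sets cannot be set against each other.

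LTI30 read lower than callus in all 5 liquid cultures, and its lowest value was the earliest. It read 256 in callus, and high medium gave 36.2 at day 2, 93.1 at day 5 and 85.2 at day 9. The day 2 value was 14.1% of the callus intensity, a 7.07-fold difference with a log2 ratio of -2.82. With the floor at the 60th percentile, an intensity of 65.1, this day 2 value lies under the floor and the ratio becomes a bound of -1.98, still a call. Only 4 of the 14245 probe sets with a ratio had a lower ratio at day 2. LTI30 too was picked with its values known, so this place follows in part from that choice. Log2 ratios were smaller in size at days 5 and 9, at -1.46 and -1.59, or 36.4% and 33.3% of the callus intensity.

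Within high medium, LTI30 was 2.57-fold higher at day 5 than at day 2, at 93.1 against 36.2 (log2 ratio of 1.36). Over all probe sets in that step, 1.27% were called higher. From there to day 9 the log2 ratio was -0.13, in a step where 1.15% of probe sets were called in either direction. COR47 had no such return, and its day 5 over day 2 ratio was below 0. With the floor at the 60th percentile, the day 5 over day 2 ratio of LTI30 becomes at least 0.52, which is not a call.

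LTI30 differed less than COR47 between the high and low medium arrays. The day 5 values were 93.1 in high medium and 103 in low medium, and the day 9 values were 85.2 in high medium and 70.9 in low medium. The log2 ratios were -0.15 and 0.27, neither of them a call, and the ranges of the media overlapped. Both low medium values were called lower than callus, with log2 ratios of -1.31 and -1.85. The share of all probe sets called lower in these comparisons was 3.73% for day 5 and 2.5% for day 9. The step from day 5 to day 9 in low medium was -0.54. The order of LTI30 was callus, low medium at day 5, high medium at days 5 and 9, low medium at day 9, and high medium at day 2, with no spread to tell neighbours apart.

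The ratios of both genes were then set beside those of other probe sets of like brightness, within 0.5 of the gene's mean log2 intensity. Both genes were picked with these values known, so how far out they lie follows in part from that choice. For COR47 there were 3301 of these. Between high and low medium, their central 95% ran from -0.58 to 0.63 on day 5, and 2 of them lay as low as COR47. On day 9 it ran from -0.48 to 0.50, and 0 lay as low. Against callus, 11, 10 and 7 of the 3301 lay as low as COR47 in the day 2, day 5 and day 9 cultures of high medium. In low medium the counts were 542 on day 5 and 372 on day 9, so COR47 lay well inside the range of like probe sets there.

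For LTI30 there were 3671 probe sets of like brightness. Against callus, 2, 48 and 16 of them lay as low in the day 2, day 5 and day 9 cultures of high medium. In low medium these counts were 58 on day 5 and 13 on day 9. In the step from day 2 to day 5 in high medium, 23 lay as high. Between the media LTI30 lay inside their central 95% on both days, which spanned -0.67 to 0.78 on day 5 and -0.56 to 0.56 on day 9. These ranges describe single pairs of arrays and are no measure of replicate error.

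**Figure D2:**
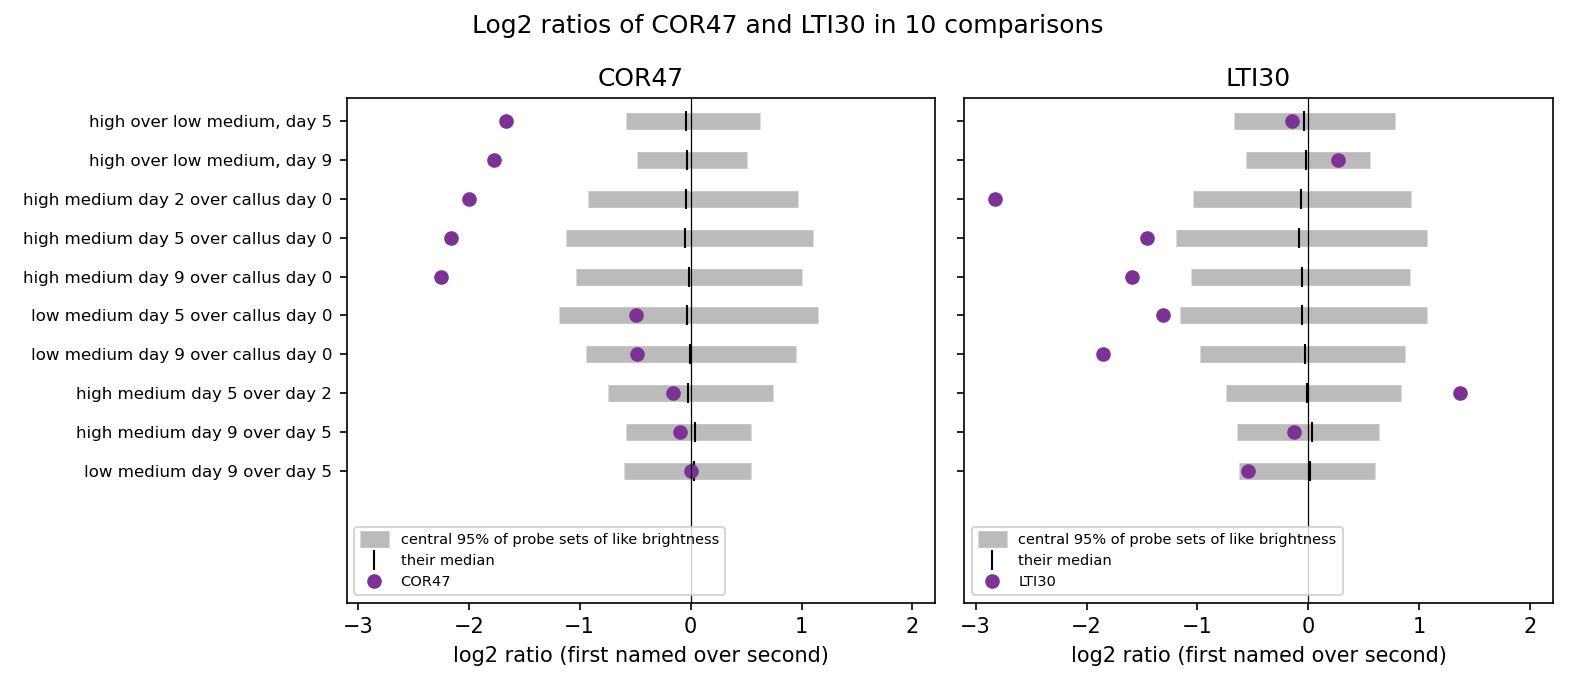
Log2 ratios of COR47 (left) and LTI30 (right) as purple dots in the 10 comparisons, each named with the array on top of the ratio first. Grey bars span the central 95% of probe sets of like brightness (3301 for COR47 and 3671 for LTI30) and black ticks mark their medians. COR47 lies outside the bar in both comparisons of high with low medium and in high medium against callus. LTI30 does so in all 5 comparisons with callus and at day 5 over day 2 in high medium. Both genes were picked with these values known.

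COR47 and LTI30 thus shared a high callus value and differed in the rest of their course. Over the 6 arrays their Pearson correlation was 0.60 on the log2 scale, and over the 5 liquid cultures 0.26. Both figures rest on few points that share their arrays and are given as descriptions only. All 5 comparisons with callus use the same day 0 array.

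Of the 10 dehydrin genes listed for Arabidopsis, 6 were named through a single-gene probe set, and 4 of these lay above the floor on all 6 arrays. ERD10, the tandem neighbour of COR47, and XERO1, the tandem neighbour of LTI30, are not named by a single-gene probe set here and were not analysed, nor were ERD14 and RAB18. The dehydrin gene LEA (AT2G21490) and AT4G39130 lay under the floor on every array, at 1.60 to 9.80 and 3.70 to 10.9. The probe sequences were not used here, so signal from a close relative reaching the COR47 or LTI30 probes was not tested.

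The dehydrin gene AT4G38410 was the third one called lower than callus, with a later course. It read 234 in callus, and high medium gave 233 at day 2, 59.1 at day 5 and 40.9 at day 9. Its day 2 value was level with callus, where COR47 and LTI30 were already called lower, and its log2 ratios to callus on days 5 and 9 were -1.98 and -2.51. With the floor at the 60th percentile the day 9 ratio is a bound of -1.84, still a call. It was also called lower at day 5 than at day 2 in high medium (-1.98), where 0.873% of all probe sets were. The low medium readings were 86.6 on day 5 and 84.5 on day 9, log2 ratios to callus of -1.43 and -1.47. High over low medium gave a log2 ratio of -0.55 on day 5 and of -1.05 on day 9. That day 9 difference, 40.9 in high medium against 84.5 in low medium, is a call, but not with a pseudocount in place of the floor (-0.82), with arrays scaled to the reference genes (-0.98) or with the floor at the 60th percentile (-0.38).

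HIRD11 (AT1G54410), a small histidine-rich dehydrin that binds metal ions, was called in 0 of the 10 comparisons. With 0.242% to 3.75% of all probe sets called lower between media and against callus, a count of 0 is near the background. HIRD11 read 462 in callus, and high medium gave 535 at day 2, 356 at day 5 and 250 at day 9. Low medium gave 268 on day 5 and 242 on day 9. Its highest value was thus at day 2 in high medium and its lowest at day 9 in low medium. The log2 ratios to callus ran from 0.21 at day 2 in high medium to -0.93 at day 9 in low medium.

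Counted over the 4 dehydrin genes with a ratio, 2, 3 and 3 were called lower than callus in the day 2, day 5 and day 9 cultures of high medium, and 2 in each culture of low medium. In the same order, 2.63%, 3.75% and 2.71% of all probe sets were called lower for high medium and 3.73% and 2.5% for low medium. None of the 4 was called higher than callus. At days 5 and 9, 1.9% to 3.06% of all probe sets were called higher, so a count of 0 among 4 is near the background. In the same order the median log2 ratios were -1.0, -1.72 and -1.92 for high medium and -1.05 and -1.20 for low medium, where the medians of all probe sets lay from -0.04 to -0.01. COR47 and LTI30, picked with their values known, hold 2 of these 4 places, so the counts and medians follow in part from the choice. Between high and low medium, 1 dehydrin was called lower at day 5 and 2 at day 9, where 0.622% and 0.242% of all probe sets were. COR47 is the call at day 5, and COR47 and AT4G38410 are the calls at day 9. These counts also follow in part from the choice of COR47, and the AT4G38410 call is lost under some of the alternatives given above.

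**Figure D3:**
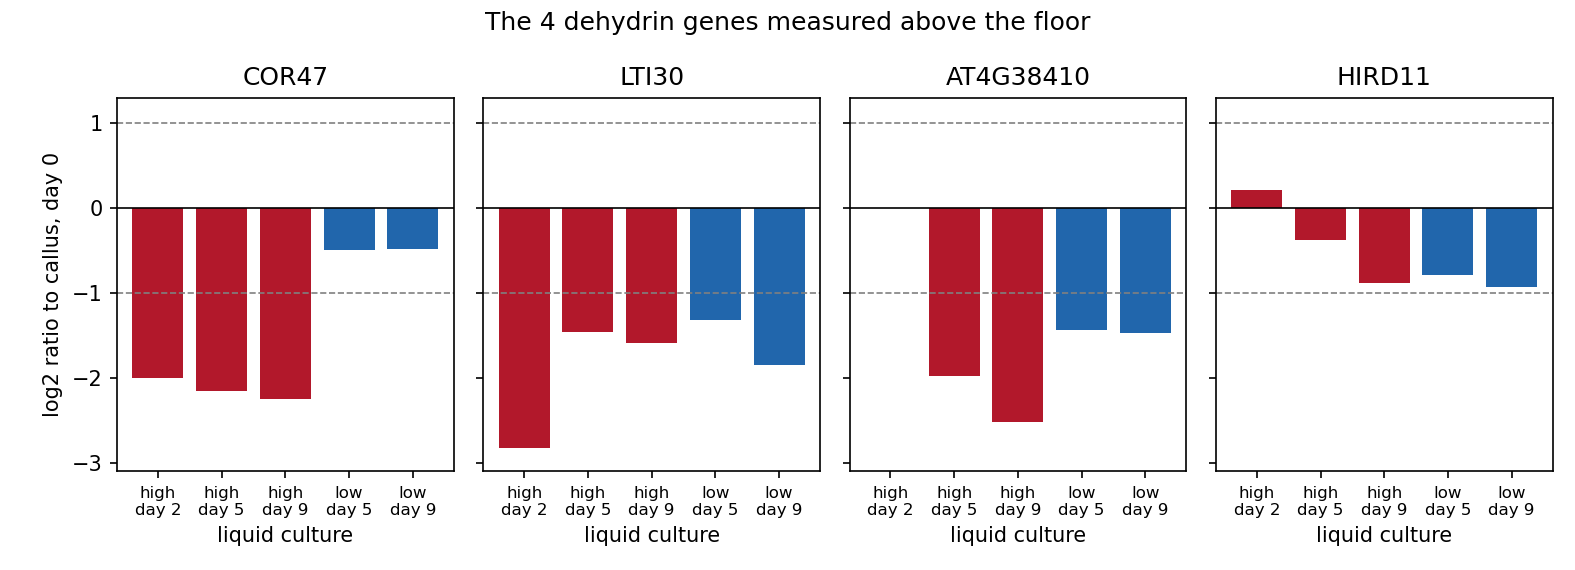
Log2 ratio to callus at day 0 of the 4 dehydrin genes above the floor, with 1 bar per liquid culture, in red for high and in blue for low medium. Dashed lines mark 2-fold. At day 2 in high medium COR47 and LTI30 lie at -2.0 and -2.82 while AT4G38410 lies at 0.00 and HIRD11 at 0.21.

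Other LEA protein genes were mostly below the floor. Here and below, a gene counts as measured if a single-gene probe set names it. Unmeasured genes may still have an unnamed or shared probe set on the array. Of 36 listed, 24 were measured, and 18 of these lay under the floor on every array. Among the 18 was COR15A, a chloroplast protein gene of the cold response. Of the other 6, 0 were called lower than callus in any liquid culture. With the shares of all probe sets called lower at 2.5% to 3.75%, a count of 0 among 6 is near the background. AT2G23120 still read below callus in all 5 liquid cultures. It read 520 in callus, and high medium gave 283 at day 2, 363 at day 5 and 324 at day 9. Low medium gave 274 on day 5 and 308 on day 9. These log2 ratios to callus, -0.93 to -0.52, were further from 0 than the -0.49 and -0.48 of COR47 in low medium, and AT2G23120 was picked for mention after its values were seen. AT2G23110 was called higher than callus at days 5 and 9 in both media. It read 16.5 in callus, under the floor, and high medium gave 35.3 at day 2, 56.9 at day 5 and 65.3 at day 9. Low medium gave 68.6 on day 5 and 60.5 on day 9. Its log2 ratios to callus on days 5 and 9 were at least 1.20 and 1.40 for high medium and at least 1.47 and 1.29 for low medium. The shares of all probe sets called higher in the same comparisons were 2.88% and 2.22% for high medium and 3.06% and 1.9% for low medium. With the floor at the 60th percentile, AT2G23110 is called in none of these comparisons. The drought-induced gene DI21 ranged over 2104 to 2491 in high medium and 1994 to 2019 in low medium, against 1960 in callus. AT2G44060 ranged over 921 to 1008 in high medium and 831 to 972 in low medium, against 880 in callus.

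Few genes of the wider cold, drought and abscisic acid response were named by a single-gene probe set. With so few members, a count of 0 called is near the shares over all probe sets. Of 15 cold-regulated genes listed, 3 were measured, only 1 or 2 of them had a ratio in a given comparison, and 0 were called. Between media and against callus, 0.242% to 3.75% of all probe sets were called lower. COR15A, under the floor on every array, and COR15B are also among the LEA genes above. AT1G16850 had log2 ratios to callus of 0.54 to 0.96 in the 5 liquid cultures, opposite in sign to those of COR47 and LTI30, and COR15B read 21.8 to 26.1, around the floor. The zinc finger repressor gene ZAT10 was the only 1 of 23 listed regulators measured. The day 5 values were 79.2 in high medium and 46.4 in low medium, and the day 9 values were 75.6 and 49.6 in the same order, log2 ratios of 0.77 and 0.61. ZAT10 thus read higher in high medium, where COR47 read lower, and was not called. Of 23 drought and osmotic response genes, 2 were measured and neither was called: the osmotin-like gene OSM34 had log2 ratios to callus of 0.35 to 0.64, and the aldehyde dehydrogenase gene ALDH7B4 of -0.15 to 0.01. The proline breakdown gene PRODH2 lay under the floor. The 21 genes of abscisic acid signalling, the 10 of its synthesis and breakdown and the 4 of sugar starvation had 0 measured members. The reference genes TIP41L and SAND read 191 to 214 and 113 to 137.

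Few markers that could show a change of cell type were named by a single-gene probe set. Of 10 listed tracheary element genes, 2 were measured, IRX10 and IRX15, and their summed intensity ranged over 110 to 180 in high medium, highest at day 2, and 73.0 to 84.0 in low medium, against 127 in callus. IRX15 lay above the floor only at day 2 in high medium (39.9) and in callus (31.5). IRX10 alone read 89.9 to 140 in high medium, 64.4 and 80.6 in low medium and 95.2 in callus. The callus markers LBD16 and LBD29, 2 of 10 listed, summed to 91.5 to 158 in high medium, 168 to 175 in low medium and 147 in callus, with LBD29 under the floor on every array. LHCB4.1, the only 1 of 5 mesophyll genes measured, read 50.2 to 65.2 in high medium, 57.2 and 30.9 in low medium and 50.0 in callus. No seed or embryo marker of 9 listed was measured. The part of these cell types in the COR47 and LTI30 values was not tested.

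The named genes whose course was most like each dehydrin were ranked by Pearson correlation over the 6 arrays, among 842 other named probe sets above the floor on every array and with at least a 2-fold range. For COR47 these were AT1G65920 (r of 0.96), AT2G34080 (0.95), AT2G46850 (0.93), AT1G22570 (0.89) and AT5G07860 (0.88). AT2G34080 came nearest in size as well, with 70.0 to 95.5 in high medium, 143 and 226 in low medium, and 337 in callus. AT1G65920 had a narrower range, from 38.0 at day 2 in high medium to 89.2 in callus.

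For LTI30 the most alike were the fructan exohydrolase gene cwINV6 (AT5G11920) and AT4G02940 (r of 0.98 each), AT1G18360 (0.97), AT5G61820 (0.96) and AT4G13180 (0.96). All 5 had their lowest value at day 2 in high medium, as LTI30 did. cwINV6 read 136 in callus, and high medium gave 37.1 at day 2, 60.9 at day 5 and 61.1 at day 9. Low medium gave 63.1 on day 5 and 48.9 on day 9. A correlation above 0.9 was reached by 3 named probe sets for COR47 and by 23 for LTI30. LTI30 stood at place 137 of 842 in the order for COR47, and COR47 at place 141 of 842 in that for LTI30. These correlations come from 6 arrays that all the genes share and were selected as the highest among many. A shared course, such as the low value at day 2, follows from that selection.

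**Figure D4:**
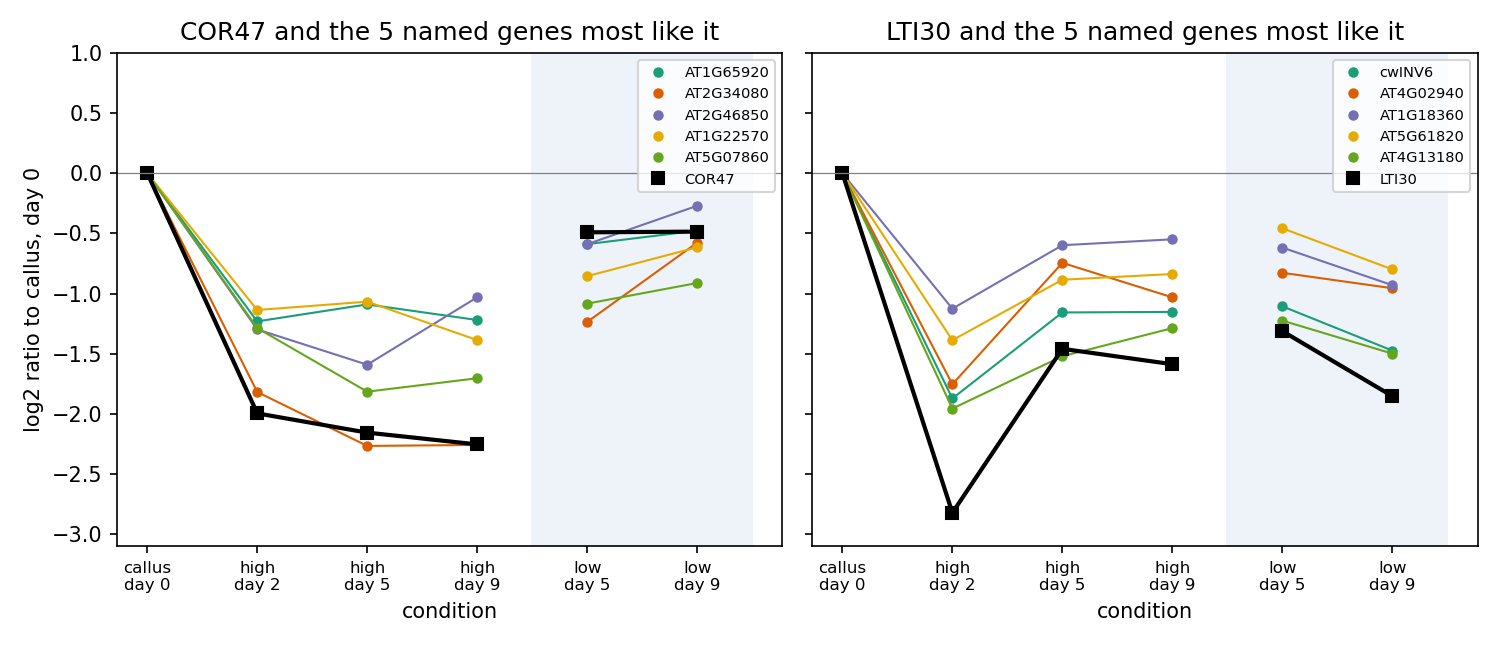
Log2 ratio to callus at day 0 of COR47 (left, black) and LTI30 (right, black) with the 5 named genes most like each, over callus, high medium at days 2, 5 and 9 and low medium at days 5 and 9 (shaded). The 5 genes like COR47 lie higher in low than in high medium at matched days, and the 5 like LTI30 are lowest at day 2 in high medium. These genes were selected for their correlation on the same arrays, so a shared course follows from that selection.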

How the data were processed

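Total RNA from 6 samples was hybridised to 1-colour ATH1 arrays of 22810 probe sets, per the labels. The authors deposited 1 intensity per probe set on a linear scale, already scaled. The sources used here do not give the software behind that summary and scaling. Over 22746 probe sets that are not controls, trimmed means (2% at each end) agreed within the 5% limit, so the deposited scaling was kept. Log2 was taken after a common floor at 24.7, the 40th percentile of each array in the median (Python 3.11.15, pandas 2.3.3). A ratio with 1 array under the floor is a bound, and with both under it none is given. Each array had 59.3% to 61.1% of its probe sets above this floor. The annotation gives 1 gene for 13513 probe sets, several for 503 and none for 8730, and 13436 were matched by gene identifier to RefSeq (TAIR10.1), used for names and gene order only. The probe set with the highest mean was kept for each gene.

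The members and gene lists were chosen with earlier results of these data known. Named genes were the members, all measured dehydrins, list genes called in any comparison, up to 2 of the brightest others in each list, the reference genes, and the 5 named genes most like each member. Outside this rule, AT2G23120, COR15A, the measured marker genes and AT1G20430, a neighbour of COR47, were also named. With 1 array per condition no test was run. Other floors, a pseudocount and other scalings were tried.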

Additional observations from a re-analysis of the deposited data

Results flagged for a closer look

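The difference of LTI30 between high and low medium ran in opposite directions on the 2 days, with log2 ratios of 0.27 at day 9 and -0.15 at day 5, 0.41 apart. The step of COR47 from day 5 to day 9 was -0.10 in high and 0.01 in low medium, a difference of -0.10. Neither difference was tested, and all 4 ratios lay inside the central 95% of probe sets of like brightness.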

How the results depend on the processing

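Across 20 log2 ratios of COR47 and LTI30 under 6 alternatives each, 118 of 120 values kept their direction and their side of the 2-fold limit. The exceptions were LTI30 at day 5 over day 2 in high medium, 0.52 with the floor at the 60th percentile, where fewer values lie above the floor, and COR47 at day 9 over day 5 in low medium, -0.0076 with quantile scaling, which is 0.01 as reported. COR47 between high and low medium ranged over -1.67 to -1.47 on day 5 and -1.79 to -1.56 on day 9, and LTI30 at day 2 against callus from -2.82 to -1.98. AT4G38410 at day 2 against callus, 0.00 as reported, was 0.088 with equal medians and 0.11 with arrays scaled to TIP41L and SAND. That scaling moved the median of all probe sets by 0.11 at day 2 against callus. Alternatives for AT4G38410, HIRD11, AT2G23110 and the dehydrin counts were chosen after seeing the data. The 2 dehydrins called between media at day 9 became 1 with the floor at the 60th percentile, with a pseudocount of 16 or with the reference gene scaling, and those called at day 5 over day 2 in high medium became 1 from 2 with the floor at the 60th percentile. AT2G23110 was 1.1 at day 2 with the floor at the 20th percentile, and with the floor at the 60th at least 0.004 at day 9 in high and 0.08 at day 5 in low medium.

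The background counts depended on the floor. With floors at the 20th, 40th and 60th percentile, the calls between media numbered 982, 264 and 113 on day 5, and 429, 94 and 34 on day 9. For high medium against callus they numbered 1347, 737 and 401 on day 2, then 2095, 965 and 523 on day 5, then 1334, 707 and 420 on day 9. For low medium against callus they numbered 1992, 993 and 586 on day 5, then 1225, 627 and 344 on day 9. For high medium they numbered 1117, 307 and 133 for day 5 over day 2, and 866, 164 and 81 for day 9 over day 5. For low medium they numbered 707, 133 and 73 for day 9 over day 5. The share of calls that were higher was 65.9% between media at day 5 and 63.8% at day 9 as reported, and 76.7% and 74.7% with the reference gene scaling. Against callus in high medium it was 49.3% at day 2 and 43.4% at day 5, and 59.3% and 54.8% with equal medians, with 62.3% at day 2 under the reference gene scaling. No second probe set was named for either gene, so that alternative was not run. No paired test of the day-matched ratios between media was run. Each condition has 1 array, with no replicate number to share, and the genes were picked with their values known. These ratios are descriptions. The arrays hold no read depth, and values under the floor cannot be ordered.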

Other observations

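Few genes next to COR47 and LTI30 on their chromosomes could be read. Among the 5 protein-coding genes on each side of COR47 on chromosome 1, 6 were measured and 3 lay above the floor on some array. In the 10 comparisons the log2 ratios of these 3 ran from -0.74 to 0.29. The nearest measured neighbour, AT1G20430, gave 384 to 403 in high medium and 340 to 348 in low medium on days 5 and 9. Around LTI30 on chromosome 3, 4 of 10 neighbours were measured and 2 lay above the floor. Their log2 ratios ran from -0.78 to 0.37. So few genes say nothing of neighbours in general.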
